A study of Mus musculus with 12 samples.

Results

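Solute carriers are membrane proteins that move amino acids, transmitters, sugars, ions, metals and metabolites across cell and organelle membranes. The loci described here are the peaks of 5-methylcytosine (5mC) and 5-hydroxymethylcytosine (5hmC) whose nearest gene carries a solute carrier symbol, that is, a symbol of the Slc or Slco series, whatever their levels. They were 875 of 55085 peaks of 5mC, near 224 genes, and 694 of 47478 peaks of 5hmC, near 197 genes. Altogether, 247 of 16293 nearest genes were solute carriers, of which 174 had peaks of both marks, 50 of 5mC only and 23 of 5hmC only. Symbols with a suffix were kept, and a few of these (Slc9a3r1, Slc9a3r2, Slc4a1ap and Slc7a6os) name proteins that bind or lie next to a transporter, and Slc39a1-ps a pseudogene.

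The cells came from the cortex of mouse embryos at E14.5 that carried 1 copy each of the reporter alleles Btg2-RFP and Tubb3-GFP, with no treatment, and were FAC-sorted by both reporters. Proliferating progenitors (PP) carried neither reporter, differentiating progenitors (DP) RFP but not GFP, and neurons GFP with or without RFP, so that each population is defined by the activity of the Btg2 and Tubb3 loci. For each mark, 1 immunoprecipitated (IP) sample and 1 input sample are listed per cell type, 12 samples in all, and barcoded DNA of the cell types was immunoprecipitated in a common pool. The tables give 1 value per peak and cell type, the authors' mean on a log2 scale, on which 1 unit is a doubling of the normalized read level.

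Each value stands for 3 biological replicates averaged by the authors. The values of single replicates were not analysed here, so that no SD or test is given and no difference below is set against the spread between replicates. Differences are the later minus the earlier cell type, each centered on the median difference over all peaks of the mark. That median was -0.0040 from PP to DP, -0.18 from DP to neurons and -0.17 from PP to neurons for 5mC, and -0.0035, -0.023 and -0.081 for 5hmC. A peak was counted as higher or lower when its centered difference passed 1.5-fold, that is, 0.58 on the log2 scale. A peak entered the tables through the cell types in which it was called, and one that is low in a cell type is there because it is high in another. The 3 transitions share cell types and are given side by side.

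Expression values, from RNA of the same cell types on an unnamed scale, followed the sort. All 5 PP markers (Sox2, Pax6, Hes5, Nes and Vim) were highest in PP, all 4 DP markers (Btg2, Eomes, Neurog2 and Insm1) in DP, and the 4 neuronal markers with a value (Tubb3, Neurod6, Dcx and Tbr1) in neurons. Btg2 and Tubb3 are the loci whose reporters sorted the cells, so their order does not stand apart from the sort. Markers of other cells moved as well. The interneuron genes Gad1, Dlx1 and Dlx2 summed to 898 for PP, 3434 for DP and 9244 for neurons. The endothelial genes Pecam1 and Cldn5 summed to 157, 42.2 and 29.9, the oligodendrocyte precursor genes Pdgfra and Olig1 to 160, 154 and 30.3, and the microglial gene Cx3cr1 stood at 62.3, 41.8 and 7.5. Fewer cells of a type and less RNA per cell cannot be told apart in such bulk values.

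In the cortex, uptake transporters of the SLC1 and SLC6 families clear glutamate, GABA and glycine from the extracellular space. Vesicular transporters of the SLC17, SLC18 and SLC32 families load transmitters into synaptic vesicles. Progenitors take up glucose, lactate and amino acids through other families, and chloride cotransporters of the SLC12 family set whether GABA excites or inhibits a young neuron. 5mC is laid down by DNA methyltransferases mostly at cytosines followed by guanine (CG), and 5hmC arises from 5mC by oxidation through Tet enzymes, often at enhancers.

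Most solute carrier peaks lay away from start sites, as did peaks in general. Of the 5mC peaks, 5.94% were within 2 kb of the start site of their gene (6.14% of all peaks), and of the 5hmC peaks 6.20% (6.63%). They lay inside the gene more often than peaks at large, 50.2% against 40.2% for 5mC and 49.3% against 36.2% for 5hmC. Beyond 100 kb from the start site lay 71 of the 5mC peaks and 77 of the 5hmC peaks, some of them inside long genes such as Slc4a4. For those outside the gene, the nearest gene is only a name for the place. Solute carrier genes spanned a median of 29.9 kb in RefSeq, against 21.1 kb over all nearest genes with a length. Levels were like those of other peaks, with a median per 100 bp of 4.43 for 5mC (4.39 over all peaks) and 3.98 for 5hmC (3.94).

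A few peaks overlapped the promoter window of their gene, and bases from them are shown to let the CG content be read beside the mark. The promoter windows of RefSeq (GRCm38.p6, the assembly of the files, mm10) span 250 bases before to 50 after a start site and held 186 of the 247 genes. Peaks of 5mC overlapped a window of their own gene at Slc25a31, Slc7a1 and Slc41a3, and peaks of 5hmC at Slc12a7, Slc12a8, Slc29a1, Slc3a1, Slc4a5, Slc6a9 and Slc8a2. Those of Slc7a1, Slc41a3, Slc12a7 and Slc3a1 ended short of the start site. The windows of solute carrier genes held a median of 14 CG, against 7 over all 32851 windows, and 62.8% held 10 or more (43.5% of all). All windows here are those of 27025 genes, which include genes nearest to no peak, unlike the solute carrier genes. At least 1 CG was found in 99.2% of them (94.6% of all). The letters CG read the same on both strands and cannot overlap. Below is the part of a peak that lay inside the window and before the start site, on the strand of the gene with CG in capitals, first for the 5mC peaks of Slc25a31 (chr3:40708827-40708870, plus strand) and Slc7a1 (chr5:148392818-148392935, minus strand), then for the 5hmC peaks of Slc12a7 (chr13:73763410-73763478), Slc12a8 (chr16:33518420-33518534), Slc6a9 (chr4:117849307-117849349) and Slc3a1 (chr17:85028125-85028303), all on the plus strand.
Slc25a31: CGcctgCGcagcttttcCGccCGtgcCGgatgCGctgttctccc
Slc7a1: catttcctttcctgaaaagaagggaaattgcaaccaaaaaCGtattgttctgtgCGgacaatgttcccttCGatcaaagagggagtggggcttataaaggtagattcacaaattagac
Slc12a7: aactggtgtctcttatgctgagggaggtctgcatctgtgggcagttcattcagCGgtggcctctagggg
Slc12a8: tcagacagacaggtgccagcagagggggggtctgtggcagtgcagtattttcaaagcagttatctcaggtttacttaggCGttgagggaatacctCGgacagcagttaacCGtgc
Slc6a9: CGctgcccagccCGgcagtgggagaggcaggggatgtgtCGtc
Slc3a1: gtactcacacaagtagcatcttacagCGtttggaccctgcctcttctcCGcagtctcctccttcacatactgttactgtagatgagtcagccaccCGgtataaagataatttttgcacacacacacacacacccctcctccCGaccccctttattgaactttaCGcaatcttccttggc
The stretch at Slc25a31, a mitochondrial ADP/ATP carrier, held 6 CG in 44 bases and the authors' mean 5mC level there was 6.31 for PP, 6.66 for DP and 6.38 for neurons. That at Slc7a1, a cationic amino acid transporter, lay at an internal start site and held 3 CG in 118 bases, with 5mC levels of 6.69, 6.55 and 6.75. Both thus kept their 5mC within 1.5-fold. The 5hmC peak before Slc12a7, a potassium-chloride cotransporter, stood at 5.16 for PP, 4.71 for DP and 4.15 for neurons, lower by 0.93 from PP to neurons, and the part of it inside the window held 1 CG in 69 bases. The opposite order was seen at internal start sites of Slc12a8, with 5hmC levels of 3.15, 4.29 and 4.39, and of Slc6a9, a glycine uptake transporter, with 4.26, 4.93 and 5.32. The peak before Slc3a1, a heavy subunit of amino acid exchangers, stayed at 5.91, 5.55 and 5.86 and held 5 CG in 179 bases.

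Across the family, 5hmC was more often higher than lower in the later cell type, and 5mC more often lower, at shares close to those of all peaks. From PP to DP, 44 of the 875 solute carrier 5mC peaks were higher (5.03%, against 4.6% of all peaks) and 53 lower (6.06% against 5.44%). From DP to neurons, 48 were higher (5.49% against 5.12%) and 81 lower (9.26% against 9.36%). From PP to neurons, 50 were higher (5.71% against 5.0%) and 77 lower, near 63 genes (8.80% against 10.2%). Without centering, 24 were higher and 140 lower from DP to neurons, and 24 higher and 145 lower from PP to neurons. These counts include the shift of all 5mC peaks, a median of -0.18 and -0.17. Shares of all peaks without centering were not computed. The median centered difference of solute carrier peaks was within 0.02 of that of all peaks in each of these transitions.

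For 5hmC, 79 of the 694 solute carrier peaks were higher from PP to DP (11.4%, against 11.2% of all peaks) and 29 lower (4.18% against 4.68%). From DP to neurons, 113 were higher (16.3% against 16.5%) and 45 lower (6.48% against 7.07%). From PP to neurons, 158 were higher, near 91 genes (22.8% against 22.1%), and 51 lower, near 37 genes (7.35% against 7.71%). Without centering, 142 were higher and 76 lower from PP to neurons, which includes the median shift of all 5hmC peaks, -0.081. The largest gap between both kinds of share, over the 12 of 5mC and 5hmC, was 1.44 percentage points.

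**Figure D1:**
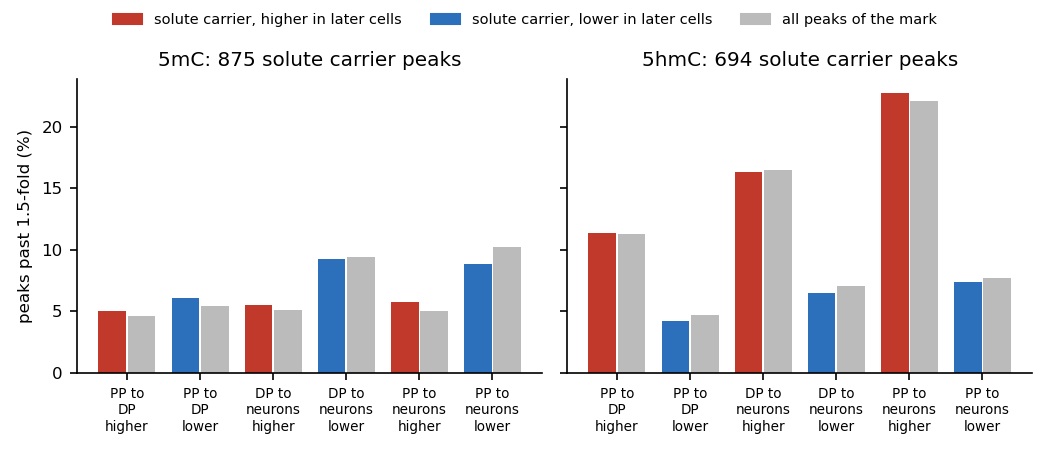
Share of peaks (%, vertical axis) whose centered level differed by more than 1.5-fold, for 5mC (left) and 5hmC (right), by transition and direction. Colored bars are solute carrier peaks (red higher, blue lower in the later cell type) and gray bars all peaks of the mark, and each pair is of similar height, with 22.8% against 22.1% for 5hmC higher from PP to neurons.

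The level of a peak went with how often it passed 1.5-fold. Among the 329 solute carrier 5hmC peaks below the median level of all peaks, 108 were higher from PP to neurons (32.8%, with 31.1% over all low peaks). Among the 365 at or above it there were 50 (13.7%, with 13.1% over all high peaks). For 5mC, 71 of 432 low peaks were lower from PP to neurons (16.4%, with 16.5% over all low peaks) but only 6 of 443 high ones (1.35%, with 3.99% over all high peaks). Peaks named below for the largest gain or loss of a single mark were therefore taken from those at or above the median level. Shared peaks and peaks of listed genes were named at any level.

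Among the well-methylated loci, the largest fall of 5mC was at a peak 28.5 kb upstream of Slc3a1 (chr17:84999733-84999855). Its level was 6.09 for PP, 5.90 for DP and 4.43 for neurons, a difference of -1.49 from PP to neurons, of which -1.29 came between DP and neurons. Next came a peak downstream of Slc2a10, a facilitated sugar transporter (chr2:165521037-165521169), with levels of 6.92, 6.16 and 5.33. It was lower in both steps, by -0.76 and -0.65. Second from DP to neurons was a peak 3.20 kb upstream of the monocarboxylate transporter gene Slc16a13 (5.79, 5.56 and 4.53), and from PP to DP a peak near Slc19a3, a thiamine transporter (5.95, 5.20 and 5.66), which stood near its PP level again in neurons.

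At the same kind of loci, the largest gain of 5mC exceeded the largest loss from PP to DP and was smaller than it in the other transitions. A peak downstream of Slc38a4, a neutral amino acid transporter (chr15:96986901-96987033), had levels of 4.35 for PP, 5.54 for DP and 5.08 for neurons, higher by 1.19 from PP to DP and by 0.90 from PP to neurons. A peak inside Slc1a4, a neutral amino acid transporter, was higher by 0.72 in DP (5.03, 5.75 and 5.43). A peak 9.79 kb upstream of the sugar transporter gene Slc2a12 was higher by 0.88 from PP to neurons (4.94, 5.60 and 5.64). In neurons against DP, a peak downstream of the choline transporter gene Slc5a7 was higher by 0.93 (5.88, 5.78 and 6.53) and a peak inside the bicarbonate transporter gene Slc4a4 by 0.81 (5.59, 5.08 and 5.72).

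The largest gains of 5hmC at well-marked loci exceeded those losses of 5mC. At a peak 27.2 kb downstream of the start of Slc48a1, a heme transporter (chr15:97811431-97811593), 5hmC was 3.45 for PP, 5.23 for DP and 5.74 for neurons, higher by 2.37. At a peak inside the anion transporter gene Slc26a9 (chr1:131750359-131750508) it was 3.48, 4.90 and 5.65, higher by 2.25. Both gained most between PP and DP, by 1.78 and 1.42. From DP to neurons, the largest gains were at a peak 12.2 kb upstream of the zinc exporter gene Slc30a1 (4.60, 4.68 and 6.11) and at one inside the sodium/calcium exchanger gene Slc8a2 (4.28, 4.30 and 5.43), both flat between PP and DP.

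Losses of 5hmC at such loci reached at most -1.04. A peak 16.8 kb upstream of Slc6a11, a GABA transporter, had levels of 5.32, 4.69 and 4.24, lower by -0.99 from PP to neurons. A peak downstream of Slc25a2, a mitochondrial ornithine carrier, had 5.14, 4.76 and 4.13 (-0.93). In neurons against DP, a peak inside the mitochondrial S-adenosylmethionine carrier gene Slc25a26 was lower by -1.04 (5.41, 5.76 and 4.7) and a peak upstream of Slc26a5 by -1.0 (4.98, 5.10 and 4.08). From PP to DP, a peak 243 kb upstream of the zinc importer gene Slc39a10 was lower by -0.75 and partly regained its level (5.15, 4.40 and 4.73).

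By level per 100 bp, the strongest solute carrier peaks hardly differed between cell types. The highest 5mC peak lay inside Slc7a10, an amino acid exchanger, at 7.71 for PP, 7.62 for DP and 7.61 for neurons, above 99.7% of all 5mC peaks. The highest 5hmC peak lay inside Slc8a1, a sodium/calcium exchanger, at 7.52, 7.53 and 7.71, above 99.7% of all 5hmC peaks.

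The counts by role that follow are centered, and stand beside 22.1% higher and 7.71% lower among all 5hmC peaks and 5.0% and 10.2% among all 5mC peaks. Between PP and neurons, 5hmC had more higher than lower peaks in 12 of 13 roles (11 without centering, where mitochondrial carriers had 12 higher and 18 lower), and 5mC more lower than higher peaks in 7 of 13 (13 without centering). The 5mC counts therefore turn on the centering in several roles, for which those without it are given too.

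Uptake transporters for transmitters (families SLC1 and SLC6) had 55 peaks of 5mC and 84 of 5hmC. From PP to neurons, 8 of the 5mC peaks were lower and 3 higher (14.55% and 5.45%), and 13 of the 5hmC peaks were higher and 7 lower (15.5% and 8.33%).

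Slc1a3, the glutamate transporter of radial glia, had 4 peaks of 5mC and 9 of 5hmC. Its 5hmC was lower in neurons than in PP past 1.5-fold at a peak inside the gene (4.59 for PP, 3.16 for DP and 2.95 for neurons) and at one 78.7 kb upstream (4.72, 4.28 and 3.18). A single peak near the end of the gene went the other way (2.85, 2.83 and 4.54), and 7 of the 9 had a centered difference below 0. One of its 5mC peaks, 30.4 kb upstream, was lower by -0.68. Expression of Slc1a3 was 18015, 5274 and 872, 20.6-fold lower in neurons than in PP. For the astroglial glutamate transporter gene Slc1a2, the only 5mC peak was lower by -1.0 (5.07, 3.97 and 3.89), while a 5hmC peak inside the gene was lower by -0.80 (4.31, 4.62 and 3.43), and expression was 931, 2496 and 5113.

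Vesicular transmitter carriers had few peaks, 14 of 5mC and 15 of 5hmC, of which 1 was higher and 1 lower in 5mC (0 and 2 without centering), and 3 higher and 1 lower in 5hmC, from PP to neurons. Slc17a7 and Slc17a6, which load glutamate into vesicles, had no 5mC peak. For Slc17a7, a 5hmC peak 0.86 kb upstream of the start stood at 4.49 for PP, 4.43 for DP and 5.00 for neurons, just past 1.5-fold (0.59, or 0.51 without centering). For Slc17a6, a 5hmC peak 37.7 kb upstream was lower by -0.64 (5.51, 5.23 and 4.79) and the other two stayed within 1.5-fold. Slc32a1, the vesicular GABA transporter, was the nearest gene of no peak.

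Amino acid transporters formed the largest group, with 159 peaks of 5mC and 108 of 5hmC. From PP to neurons, 12 of their 5mC peaks were lower and 10 higher (7.55% and 6.29%), or 25 and 5 without centering. Of their 5hmC peaks, 27 were higher and 10 lower (25% and 9.26%), or 25 and 14 without centering. Slc38a1, a glutamine transporter, had 6 of its 13 5hmC peaks higher in neurons and 1 lower, by up to 1.0 at a peak inside the gene (4.59 for PP, 5.26 for DP and 5.51 for neurons). Its 16 peaks of 5mC included 1 past 1.5-fold, inside the gene, at 4.77, 4.61 and 3.48. Its neighbor Slc38a2, which carries the same substrates, had 1 of 5 5hmC peaks higher (4.05, 4.04 and 5.07) and no 5mC peak past 1.5-fold, both from PP to neurons. Slc38a4 had the most 5mC peaks of all members, 28, of which 3 were higher and 2 lower. Slc7a1 had 24, of which 2 were higher and 2 lower, and 3 of its 8 5hmC peaks were higher and 2 lower. Slc7a5 and Slc3a2, whose products together form the large neutral amino acid exchanger, had no peak of either mark past 1.5-fold from PP to neurons, and Slc7a5 no 5hmC peak at all.

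**Figure D2:**
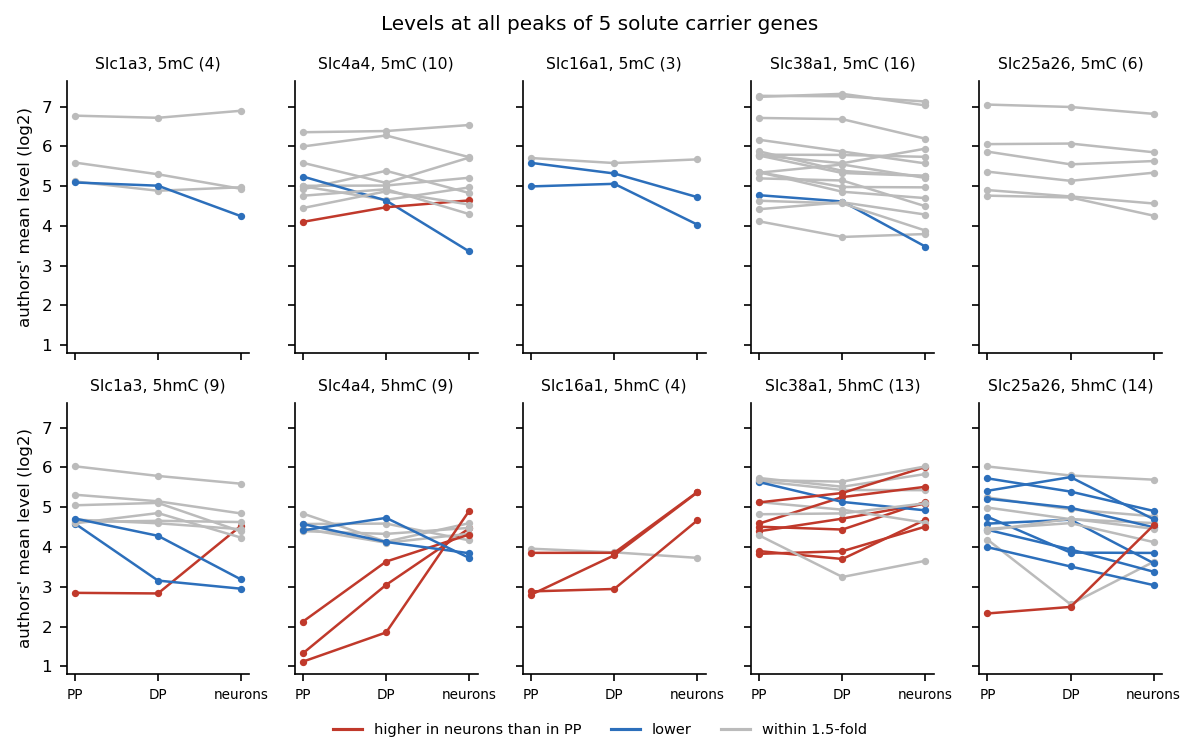
Authors' mean level (log2, vertical axis) of each 5mC peak (top) and 5hmC peak (bottom) in PP, DP and neurons (horizontal axis) for 5 genes picked after their values were seen, with the number of peaks in parentheses. Each line is a peak, colored by its centered difference from PP to neurons, as in the 3 Slc4a4 5hmC peaks that start between 1.12 and 2.13 and the 7 lower 5hmC peaks of Slc25a26.

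Sugar transporters had 64 peaks of 5mC, 6 higher and 6 lower from PP to neurons (2 and 13 without centering), and 38 of 5hmC, 5 higher and 2 lower (13.2% and 5.26%). Slc2a1, the glucose transporter of endothelium and progenitors, had 3 peaks of 5mC and 1 of 5hmC, none past 1.5-fold from PP to neurons, while its expression was 3973 for PP, 2473 for DP and 1297 for neurons, in the order of the endothelial markers, whose part was not tested. The glucose transporter gene Slc2a3 had no peak. The monocarboxylate transporter family, some members of which carry lactate and pyruvate, had 11 of 30 5hmC peaks higher and 1 lower (36.7% and 3.33%). Of its 49 5mC peaks, 2 were higher and 5 lower (4.08% and 10.2%). At Slc16a1, 3 of 4 5hmC peaks were higher, with levels of 2.88, 2.94 and 4.67 inside the gene, and 3.85, 3.85 and 5.38 and then 2.80, 3.79 and 5.37 just beyond it. In the same stretch beyond the gene, 2 of its 3 5mC peaks were lower, at 5.58, 5.32 and 4.72 and at 4.99, 5.06 and 4.03. Slc16a7, with the most 5hmC peaks of all members, had 6 of 18 higher and 1 lower, and 1 higher and 1 lower among its 25 peaks of 5mC.

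Transporters for ions and pH had 113 peaks of 5mC, 6 higher and 5 lower from PP to neurons (5.31% and 4.42%), which became 1 higher and 11 lower without centering. Of their 99 peaks of 5hmC, 21 were higher and 8 lower (21.2% and 8.08%). Slc12a2, which loads chloride into young neurons, had 17 peaks of 5mC, all within 1.5-fold from PP to neurons, and 13 of 5hmC, of which 4 were higher. One of these, 142 kb downstream of the start, stood at 1.65 for PP, 2.88 for DP and 4.61 for neurons. Slc12a5, the chloride extruder of mature neurons, had 3 peaks of 5mC and 5 of 5hmC, all within 1.5-fold from PP to neurons, and a 5hmC peak 1.58 kb inside the gene was lower by -1.01 from DP to neurons (4.41, 4.94 and 3.90).

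Within Slc4a4, a sodium bicarbonate cotransporter gene of 446 kb, 3 of 9 5hmC peaks started low and were higher in neurons. Their levels were 1.33, 3.05 and 4.47 at 64.4 kb inside the gene, 2.13, 3.63 and 4.31 at 154 kb, and 1.12, 1.85 and 4.91 at 249 kb. Another 2 were lower, by -0.65 and -0.61. Expression of Slc4a4 was 1007, 443 and 373. At Slc4a10, another sodium bicarbonate transporter gene, none of 8 5hmC peaks was higher and 2 were lower, the larger by -0.89 (5.20, 4.57 and 4.23), while expression was 81.8, 335 and 1094.

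Calcium exchangers had 35 peaks of 5hmC, 11 higher and 0 lower from PP to neurons (31.4% and 0%), or 10 and 1 without centering. Of their 31 peaks of 5mC, 3 were higher and 2 lower (9.68% and 6.45%), which became 1 higher and 5 lower without centering. At Slc24a2, a sodium/calcium-potassium exchanger, 2 of 4 5hmC peaks were higher, with levels of 3.96, 5.16 and 5.91 at 87.5 kb inside the gene and of 3.71, 4.40 and 4.52 at 88.7 kb. At Slc8a1, none of 3 5hmC peaks and none of 2 5mC peaks passed 1.5-fold from PP to neurons, although expression was 243, 311 and 4497. Metal transporters had 9 of 60 5hmC peaks higher and 4 lower (15.0% and 6.67%), and 2 of 72 5mC peaks higher and 6 lower (2.78% and 8.33%). Slc30a3, which loads zinc into synaptic vesicles, had 2 peaks of 5hmC and 1 of 5mC, none past 1.5-fold, and expression of 11.2, 11.3 and 16.8.

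Mitochondrial carriers had 80 peaks of 5hmC, 15 higher and 12 lower (18.8% and 15.0%), and 7 of the lower ones belonged to Slc25a26. That gene had 14 peaks of 5hmC, of which 12 had a centered difference below 0 from PP to neurons. The 7 lower ones lay between 68.8 kb upstream and 94.5 kb inside, as at 56.0 kb upstream (4.43 for PP, 3.94 for DP and 3.38 for neurons) and 21.9 kb inside (4.59, 4.69 and 3.59). One peak, 98.2 kb inside, was higher (2.33, 2.49 and 4.55). Its 6 peaks of 5mC all stayed within 1.5-fold, and its expression was 309, 264 and 200. At Slc25a12, an aspartate/glutamate carrier, a 5mC peak 16.2 kb inside the gene was lower by -0.93 (4.87, 4.83 and 3.76) and a 5hmC peak at 19.5 kb was higher by 1.23 (3.29, 4.19 and 4.44). The carriers had 87 peaks of 5mC, 5 higher and 8 lower (5.75% and 9.20%).

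Carriers of vitamins and nucleosides had 15 of 42 5hmC peaks higher and 1 lower from PP to neurons (35.7% and 2.38%), or 12 and 2 without centering, and 5 higher and 5 lower among 76 peaks of 5mC (3 and 11 without centering). Organic ion transporters had 11 of 44 5hmC peaks higher and 5 lower (25% and 11.4%), and 2 of 56 5mC peaks higher and 8 lower (3.57% and 14.3%). Slco1c1, a thyroid hormone transporter of brain endothelium and glia, had a 5hmC peak 7.21 kb inside the gene that was lower by -1.36 (4.25, 4.40 and 2.80). Its expression was 135 for PP, 69.0 for DP and 1.0 for neurons, and the endothelial markers moved the same way; their part was not tested. Slco4a1, named after its values were seen, had all 5 of its 5hmC peaks higher from PP to neurons, from 0.60 to 1.66. Nucleotide sugar carriers had 10 peaks of 5mC and 3 of 5hmC, none past 1.5-fold from PP to neurons (1 of 5mC lower without centering). The remaining families (bile acid, phosphate, sulfate, urea, fatty acid, choline and heme carriers) had 17 of 56 5hmC peaks higher and 0 lower (30.4% and 0%), or 15 and 1 without centering, and 5 of 89 5mC peaks higher and 11 lower (5.62% and 12.4%).

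A peak of 5mC overlapped a peak of 5hmC by at least 1 bp at 103 places near 75 solute carrier genes, of 6727 such shared peaks in all. From PP to neurons, 5mC was lower and 5hmC higher at 15 of them (14.6%, against 18.8% of all shared peaks). From PP to DP there were 7 (6.80% against 3.2%) and from DP to neurons 10 (9.71% against 12.5%). The opposite pair of changes was at 0 of the 103 places in each transition, and at only 12 to 15 of all 6727 shared peaks, so that it was rare in both. Over the 103 places, the median difference from PP to neurons was -0.19 for 5mC and 0.43 for 5hmC (-0.15 and 0.41 over all shared peaks). As a description across peaks that share libraries, Spearman's rho between both differences was -0.41 over the 103 places and -0.51 over all 6727.

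At the shared peaks with the largest sum of 5mC loss and 5hmC gain, 5hmC gained at least 2.37. These peaks were taken at any level, and some stood at few normalized reads in a cell type, as 5mC near Slc9a8 did in neurons (0.52). At 16.6 kb upstream of Slc9a8, a sodium/proton exchanger of the Golgi (chr2:167405085-167405214), 5mC was 4.38 for PP, 3.33 for DP and 0.52 for neurons, and 5hmC 2.29, 2.27 and 4.59. At the peak upstream of Slc3a1 with the 5mC loss given above, 5hmC was 1.84, 4.63 and 5.99, higher by 2.80 already from PP to DP, while 5mC there was lower by -0.19 in that step and by -1.29 in the next. At 2.19 kb upstream of Slc6a7, a proline transporter (chr18:61016326-61016455), 5mC was 4.99, 4.36 and 3.57 and 5hmC 1.12, 3.45 and 4.75.

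Inside Slc14a1, a urea transporter, a 5hmC peak (chr18:78134643-78134767) stood at 0.40, 3.03 and 4.91, higher by 4.60. The 5mC peak that overlaps it by 21 bp (chr18:78134477-78134664) was at 5.14, 5.07 and 4.62, within 1.5-fold. Inside Slc4a4 (chr5:88951089-88951229), 5mC was 5.24, 4.64 and 3.36 at the first of the 5hmC gains given above. From PP to DP, 5mC was within 1.5-fold and 5hmC past it near Slc3a1 and Slc14a1, 5mC past it and 5hmC within it near Slc9a8 (-1.05 and -0.02), and both past it near Slc6a7 and Slc4a4. Expression of the 5 genes differed from PP to neurons by 0.40 for Slc9a8, 0.22 for Slc3a1, 3.23 for Slc6a7, -7.92 for Slc14a1 and -1.43 for Slc4a4. Those of Slc9a8 and Slc3a1 were within 1.5-fold, and that of Slc6a7 rests on low values (0.7 for PP, 3 for DP and 15 for neurons).

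**Figure D3:**
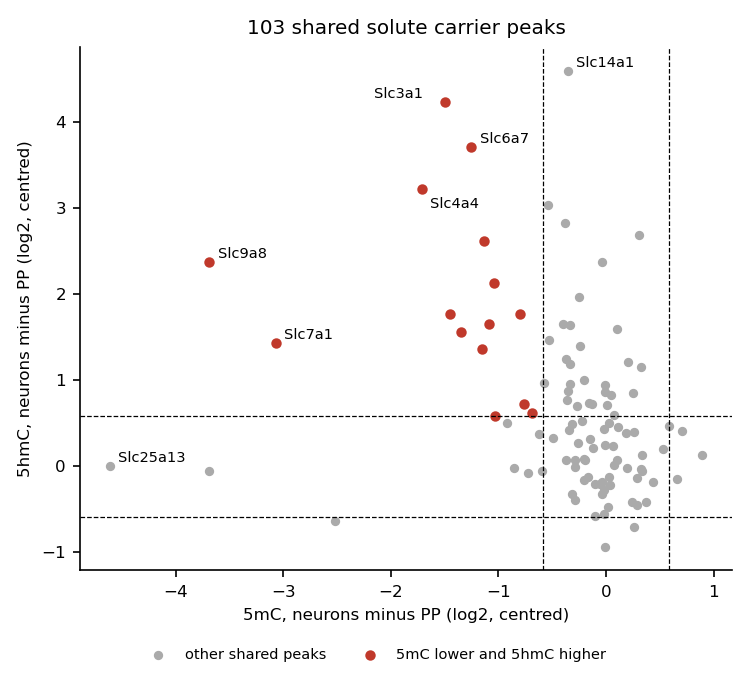
Centered difference from PP to neurons (log2) of 5mC (horizontal axis) and 5hmC (vertical axis) at the 103 shared solute carrier peaks, with 1.5-fold as dashed lines. The 15 peaks that were lower in 5mC and higher in 5hmC (red) fill the upper left, and no peak lies past both lines at the lower right.

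Expression of the 247 genes passed 1.5-fold at higher shares than that of nearest genes at large. From PP to DP, 43 were higher past 1.5-fold (17.4% against 13.8% of all genes) and 65 lower (26.3% against 17.0%). From DP to neurons, 82 were higher (33.2% against 26.3%) and 71 lower (28.7% against 26.1%). From PP to neurons, 92 were higher (37.2% against 29.9%) and 87 lower (35.2% against 31.2%). These are log2 ratios with a pseudocount of 1, which understates differences of low genes, and genes are not independent. With a pseudocount of 10 the share lower from PP to DP was 19.0%, and at a mean value of at least 50 it was 20.9%. The share higher from PP to neurons was 34.8% and 40.7% at these settings. Shares of all genes were not computed there, so the gap to them is known for the main setting only. Both sets also differ in make-up, since 246 of the 247 genes had a RefSeq length but only 13652 of all 16293. What this adds to the gap was not tested.

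Among genes with a mean value of at least 50, the widest gains from PP to neurons were of Slc1a1, a neuronal glutamate transporter (21.5 for PP, 69.2 for DP and 2897 for neurons), Slc17a7 (62.8, 1083 and 7528) and Slc45a1, a proton-coupled sugar transporter (22.9, 77.1 and 1484). Slc1a1 and Slc45a1 gained mostly between DP and neurons, and Slc17a7 more between PP and DP. Slc17a6, with 257, 7011 and 4695, was highest in DP. The deepest losses were of Slc14a1 (579, 82.4 and 1.40), Slc13a3, a dicarboxylate transporter (231, 31.8 and 1.30) and Slc38a3, a glutamine transporter (2340, 777 and 24.8). Of 16 genes for transmitter uptake, 9 were higher and 6 lower, and of 8 calcium exchangers 5 were higher and 3 lower. Of the 6 vesicular carriers, 3 were higher and 0 lower. Amino acid transporters were split, with 11 of 31 higher and 9 lower, as were mitochondrial carriers, with 11 of 34 higher and 11 lower, and monocarboxylate transporters had 3 of 10 higher and 5 lower.

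**Figure D4:**
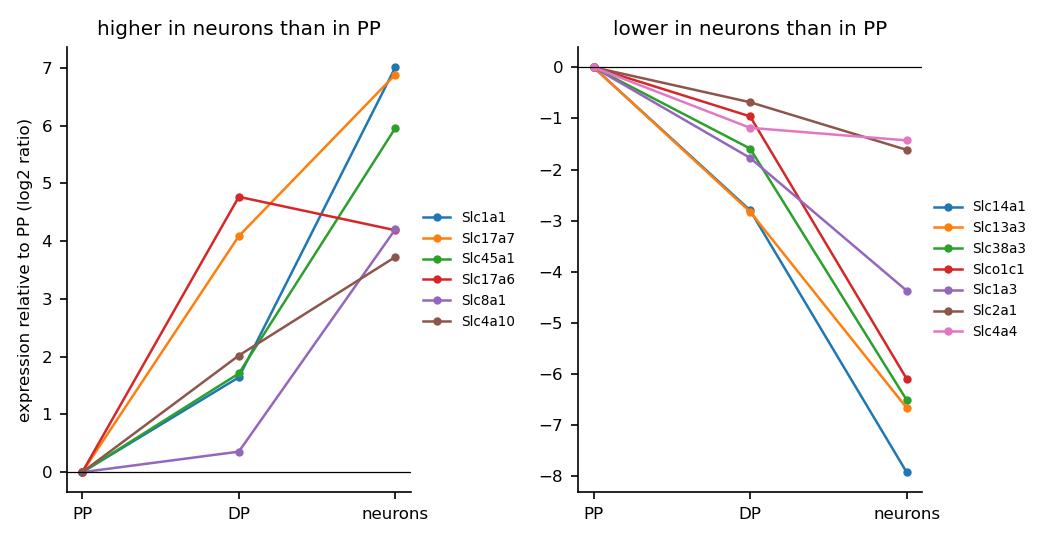
Expression relative to PP (log2 ratio with a pseudocount of 1, vertical axis) in PP, DP and neurons for 13 named solute carrier genes, 6 that were higher (left) and 7 that were lower (right) in neurons. Slc1a1 reaches 7.01 and Slc14a1 -7.92 in neurons, and Slc17a6 is the gene that peaks in DP.

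Marks and expression were then set side by side. Near the solute carrier genes that were higher in neurons than in PP, 33 of 331 5mC peaks were lower (9.97%, against 12.9% of all peaks near such genes). Near those that were lower in neurons it was 21 of 293 (7.17% against 8.66%). For 5hmC, 66 of 274 peaks were higher near genes higher in neurons (24.1% against 24.8%) and 50 of 248 near genes lower in neurons (20.2% against 20.0%). Peaks lower in 5hmC were 17 of 274 near genes higher in neurons (6.20% against 7.45%) and 26 of 248 near genes lower in neurons (10.5% against 7.75%). Of these 26, 7 belonged to a single gene, Slc25a26. In the same order of genes, peaks higher in 5mC were 22 of 331 (6.65% against 4.40%) and 16 of 293 (5.46% against 5.39%). Of the 6 genes with the widest expression changes, Slc14a1 had 2 of 4 5hmC peaks and 1 of 10 5mC peaks higher past 1.5-fold from PP to neurons, while its expression was lower. Slc17a7, with higher expression, had 1 of 2 5hmC peaks higher. Slc1a1 had 1 of 3 5mC peaks higher and its 1 5hmC peak within 1.5-fold, and Slc45a1 had 1 of 7 5mC peaks higher and 0 of 6 5hmC peaks past it. Slc13a3, with 2 peaks of 5mC and 1 of 5hmC, and Slc38a3, with 1 peak of 5mC, had none past it.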

How the data were processed

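DNA of sorted PP, DP and neurons was profiled by 75 bp single-read MeDIP (5mC) and hMeDIP (5hmC). Reads were aligned by the authors with BWA 0.7.8 (assembly mm10), who called peaks with SICER 1.1, merged peaks found in the replicates of each cell type, left out those over repeats and named the nearest gene with HOMER 4.7. The deposited log2 levels are the authors' mean of normalized reads per cell type, from DiffBind. The expression columns hold a score for each cell type, deposited by the authors from earlier RNA-seq on an unnamed scale, and the distance column a deposited score in bp. The authors' fold, p-value and expression change columns are their own comparisons and were not used. The tables hold no counts, replicate or input values, so the depth per sample is unknown from them.

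All rows were kept. Peaks were read by symbol, and differences of log2 levels, overlaps and shares past 1.5-fold were computed over whole tables with python 3.11.15, pandas 2.3.3 and numpy 2.4.6, figures with matplotlib 3.10.9. The functions were tested on simulated data. Coordinates are printed as deposited, without converting their base. Promoter bases and gene lengths came from RefSeq (GRCm38.p6).

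The members and lists were chosen with earlier results of these data known. The text names, per mark, transition and direction, the 2 peaks with the largest difference among those at or above the median level, the 5 shared peaks with the largest 5mC loss plus 5hmC gain, the highest peak per 100 bp, the 3 genes with the most peaks (5 for 5hmC, through ties), a list of cortical transporters (some of which are not reported here), and the 3 genes with the largest expression gain and loss at a mean of at least 50. Genes were grouped into 13 roles by family, so that Slc5a7 stands with sugar carriers and Slc1a4 with transmitter uptake.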

Additional observations from a re-analysis of the deposited data

How the results depend on the processing

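Of 99 settings over 21 shares of solute carrier peaks or genes past 1.5-fold, 50 gave a share within the exact 95% binomial interval of the reported one, which covers counting error only, and 49 did not. Restricting to peaks inside the gene or within 10 kb, leaving out suffixed symbols, and asking for an overlap of 0.5 of the shorter peak gave shares within it in all their settings. A stricter fold can only lower a share. The 1 peak a gene was that with the highest mean level, and the cause of the other shifts was not tested. Shares below are higher and then lower, first for PP to DP, next for DP to neurons, last for PP to neurons. They cover solute carriers only, without the share of all peaks or genes beside them.

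With 2-fold, the 5mC shares were 0.571% and 0.914%, 1.03% and 2.51%, and 0.914% and 4.0%. Those of 5hmC were 4.32% and 1.01%, 8.79% and 1.15%, and 13.8% and 0.865%. Shared peaks lower in 5mC and higher in 5hmC came to 0% for the first transition (PP to DP) and 3.88% for DP to neurons. Expression shares were 12.1% and 14.6%, 20.6% and 21.5%, and 25.5% and 28.3%. Among peaks at or above the median level, 5mC shares were 1.81% and 1.13%, 2.48% and 1.81%, and 2.03% and 1.35%, and 5hmC shares were 5.21% and 1.1%, 7.67% and 3.56%, and, higher from PP to neurons, 13.7%. With 1 peak a gene, 5mC shares were 1.79% and 2.23%, 2.68% and 3.12%, and 4.02% and 3.12%. For 5hmC the share higher in DP than in PP was 8.63%, those of DP to neurons were 8.63% and 2.03%, and 13.7% were higher in neurons than in PP. Without centering, 2.74% of 5mC peaks were higher and 16% lower from DP to neurons, 2.74% higher and 16.6% lower from PP to neurons, and 11.0% of 5hmC peaks lower from PP to neurons. A pseudocount of 10 gave 19.0% of genes lower in DP than in PP and 22.7% in neurons than in DP, and a mean expression of at least 50 gave 20.9% lower from PP to DP.

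The values used are 1 mean per cell type, so no replicate was left out and no difference has an error. No paired analysis was possible because the columns used carry no replicates. The values used carry no depth per sample, and a log2 level near 0 or 1 stands for few normalized reads. Levels of 5mC and 5hmC come from separate immunoprecipitations and are on separate scales.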
